A study of Mus musculus with 20 samples.

Results

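The apolipoprotein and lipoprotein assembly genes described here are 10 genes whose products form, load or remodel the lipoprotein particles that leave the liver. They are the apolipoprotein genes Apoa1, Apoa2, Apoa4, Apoa5, Apob, Apoc3, Apoe and Apom, the lipid transfer protein gene Mttp and the cholesterol esterifying enzyme gene Lcat. Every probe set whose only gene symbol was one of these names was taken, which gave 13 probe sets among 45037, and 10 genes among the 17097 that were measured. Apoa1, Apom and Mttp had 2 probe sets each and the other members 1. No filter on low values was applied, so all 10 members entered every comparison.

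Livers came from 20 mice, 1 array per animal, in 4 groups of 5. Progeroid mice carried 1 truncated and 1 null allele of Ercc1 (Ercc1Δ/-) in all cells of the body; Ercc1 is a subunit of a DNA repair nuclease, and its loss leads to features of early ageing. The controls were wild type littermates, and all animals were C57BL6J/FVB F1 hybrids fed AIN93G synthetic pellets and sampled at 11 weeks of age. Mice of each genotype were on a control diet or on a restricted diet, in which food was cut by 10% from 7 weeks and by 30% from 9 weeks of age. The restricted mice were fed shortly before the dark period; the sources used here give neither the hour of sampling nor the sex of the animals.

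Lipoproteins are particles of lipid and protein that carry triglyceride and cholesterol through the blood. In hepatocytes, Mttp loads lipid onto Apob as it is made, which gives very low density lipoprotein, while Apoa1 and Apoa2 form the frame of high density lipoprotein, in which Lcat esterifies cholesterol. Smaller apolipoproteins move between particles and set how fast they are broken down or taken up: Apoc3 slows lipolysis, Apoa5 speeds it, Apoe binds the receptors that clear remnants, Apom carries sphingosine-1-phosphate, and Apoa4 is induced in liver by fasting.

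The array values are on a log2 scale, on which 1 unit is a doubling. Ercc1 was 6.54 ± 0.07 in wild type and 5.30 ± 0.15 in progeroid livers on the control diet, and 6.15 ± 0.12 and 4.80 ± 0.24 on the restricted diet (SD, n = 5 per group), with no overlap between genotypes on either diet. With a probe set of Ercc1 without a suffix in its name, the genotypes differed by only 0.02 on either diet. The hepatocyte markers Alb and Ttr were high in every liver, at 14.23 to 14.40 and at 13.96 to 14.07. Of the 8 measured hepatocyte markers, none passed the test between genotypes on either diet (0 of 8 in both), where 11.0% and 17.2% of all genes did. With restriction 1 was higher in progeroid and 2 in wild type mice, where 12.0% and 22.5% of all genes were called. All these markers but Ass1 had means of 13.32 or more, near the array maxima of 14.35 to 14.51. Differences can be compressed there, so these counts cannot show whether the share of hepatocytes differed. The level of Gapdh at its 3′ end exceeded that at its 5′ end, as partly degraded RNA also gives, by 0.66 ± 0.06 in wild type control, 0.76 ± 0.12 in wild type restricted, 0.93 ± 0.28 in progeroid control and 0.81 ± 0.24 in progeroid restricted livers. In whole liver, fewer cells of a type and less RNA per cell cannot be told apart.

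Among the members, 3 differences passed the test, limma with Benjamini-Hochberg adjustment over all 17097 genes and an adjusted p under 0.05. Apoa4 was higher in progeroid than in wild type livers on the control diet, and it rose with restriction in wild type mice. Apom was lower in progeroid than in wild type livers on the restricted diet. The other 47 of the 50 combinations of gene and comparison did not pass, and 8 members passed in none of the 5 comparisons. Between genotypes, 1 of 10 members was called on the control diet, where 11.0% of all genes were, and 1 of 10 on the restricted diet, where 17.2% were. With restriction, 0 of 10 members were called in progeroid mice by limma (4 at an unadjusted p under 0.05), against 12.0% of all genes, and 1 of 10 in wild type mice, against 22.5%. For the difference between the diet effects of the genotypes, 0 of 10 were called by limma (3 at an unadjusted p under 0.05), against 1.40% of all genes. These shares stand near or below those of all genes.

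Values of both groups were apart, with no overlap, for 0 of 10 members between genotypes on the control diet, where this held for 9.35% of all genes, and for 1 of 10 on the restricted diet, against 11.9%. With restriction it held for 1 of 10 in progeroid mice, against 8.97%, and 1 of 10 in wild type mice, against 15.7%. In the fit over all probe sets the 13 probe sets of the members gave 1 call between genotypes on the control diet, against 6.94% of all probe sets, and 2 on the restricted diet, both of Apom, against 11.5%. With restriction they gave 0 calls by limma in progeroid mice (5 at an unadjusted p under 0.05), against 8.25%, and 1 in wild type mice, against 19.0%. They gave 0 for the difference of diet effects by limma (4 at an unadjusted p under 0.05), against 0.777%.

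**Figure D1:**
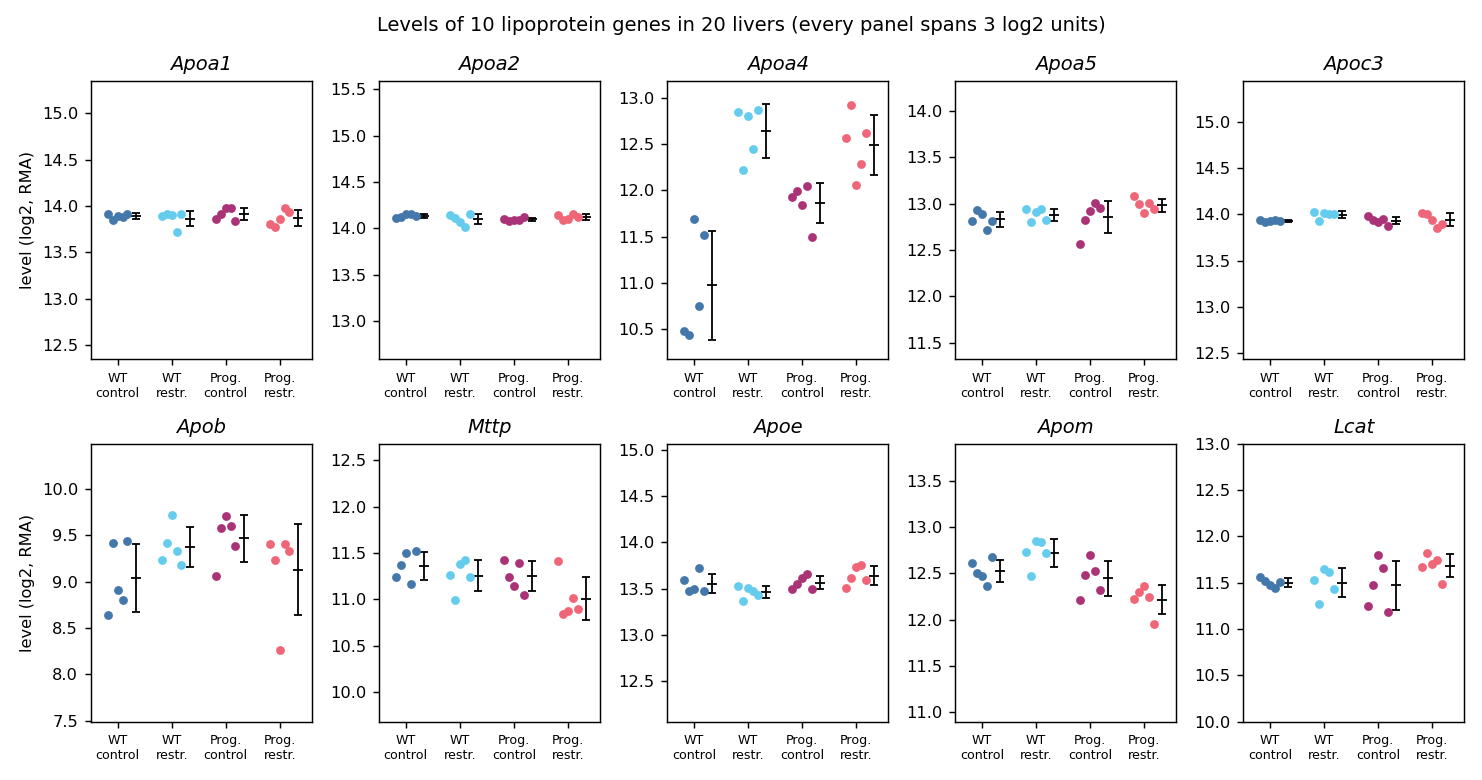
Log2 level of each of the 10 members in every liver (points, 5 per group) with the group mean and SD, in panels that each span 3 log2 units. Apoa4 moves furthest, with a range of 2.49 over the 20 livers, while Apoa2 and Apoc3 stay within 0.14 and 0.18.

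The members differed in how far they moved at all. Over the 20 livers the log2 level of Apoa4 ranged over 2.49, that of Apob over 1.46 and that of Apom over 0.90. Mttp ranged over 0.68, Lcat over 0.64, Apoa5 over 0.51 and Apoe over 0.39. Apoa1, Apoc3 and Apoa2 ranged over only 0.26, 0.18 and 0.14. These 3 genes and Apoe had mean values of 13 or more, near the array maxima of 14.35 to 14.51, where probes may be close to their ceiling and differences can be compressed. The median size of difference over the 10 members was 0.03 between genotypes on the control diet against 0.10 over all genes, and 0.16 against 0.11 on the restricted diet. With restriction it was 0.17 against 0.11 in progeroid and 0.08 against 0.12 in wild type mice.

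**Figure D2:**
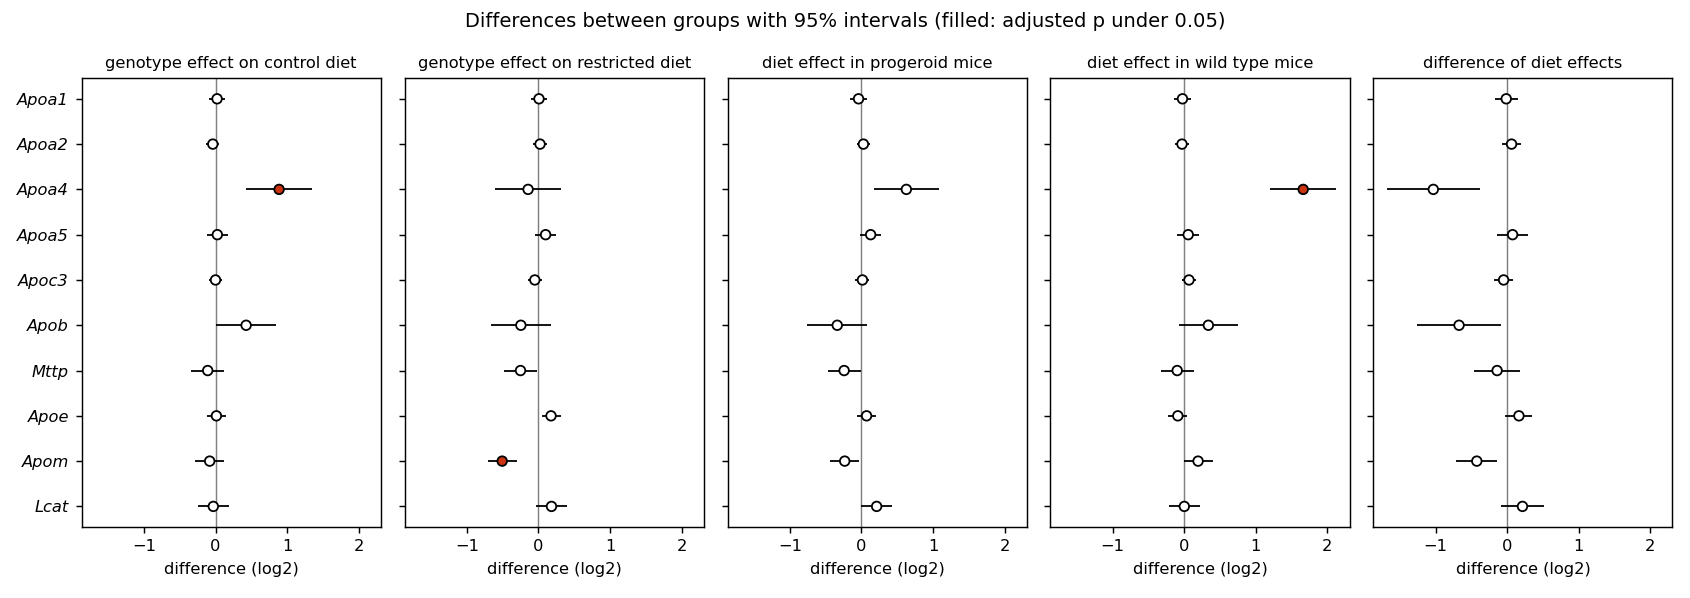
Differences of log2 level for each member in the 5 comparisons, with 95% confidence intervals from limma; filled points passed at an adjusted p under 0.05. The 3 that passed are Apoa4 between genotypes on the control diet (0.89), Apoa4 with restriction in wild type mice (1.66) and Apom between genotypes on the restricted diet (-0.51).

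Apoa4 encodes an exchangeable apolipoprotein that is made in intestine and, in mice, also in liver. Because its level moved most, the 250 bases before its annotated start are shown. Beside them are those of Apoa1, its neighbour in the same cluster on chromosome 9. The Apoa1 level hardly moved, but lay near the array maxima, where differences can be compressed. The sequences are from RefSeq on GRCm38.p6 (plus strand, chr9:46240594-46240843 for Apoa4 and chr9:46228380-46228629 for Apoa1). Capitals mark matches to any of 6 short motifs searched on both strands.
Apoa4: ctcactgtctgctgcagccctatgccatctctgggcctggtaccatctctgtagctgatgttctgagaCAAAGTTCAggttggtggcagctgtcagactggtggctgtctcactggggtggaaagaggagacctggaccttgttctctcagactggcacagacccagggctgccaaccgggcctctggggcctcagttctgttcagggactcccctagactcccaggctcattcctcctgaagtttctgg
Apoa1: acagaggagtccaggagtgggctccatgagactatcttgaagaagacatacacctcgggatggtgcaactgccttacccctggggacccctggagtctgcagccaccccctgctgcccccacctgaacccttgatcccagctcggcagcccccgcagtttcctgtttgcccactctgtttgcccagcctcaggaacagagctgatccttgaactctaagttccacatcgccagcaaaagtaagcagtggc
The motifs were CAAAGTNCA, the letters of a hepatocyte nuclear factor 4 type element, AGGTCA and GGGTCA, cores bound by nuclear receptors, GTAAACA for forkhead factors, the E-box CACGTG, and TGACGT, the core of a cyclic AMP response element. The Apoa4 window held CAAAGTNCA at positions -182 to -174 from the start, and the Apoa1 window held none of the 6. Of the 9 members with a window, Apoa4 was the 1 with CAAAGTNCA, which occurs in 1.19% of all 32851 windows of this length. Members are counted here as genes, with 13 windows between them, while the percentage counts single windows. A match is a description of letters, not a bound site. Only these letters were searched, so a window without a match may still hold a looser form of an element.

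In wild type livers on the control diet, the log2 level of Apoa4 was 10.48, 10.44, 11.69, 10.75 and 11.52 in animals 401 to 405. With restriction it was 12.85, 12.22, 12.80, 12.45 and 12.87 in animals 421 to 425. All 5 restricted livers lay above all 5 control livers, and animals 403 and 405 stood about 1 unit above the other control livers. In progeroid mice it was 11.93, 11.99, 11.84, 12.05 and 11.50 on the control diet and 12.56, 12.92, 12.06, 12.29 and 12.62 on the restricted diet. Here too the diets did not overlap, though the highest control liver, at 12.05, and the lowest restricted one, at 12.06, nearly met. The progeroid livers on the control diet were close together, and overlapped the wild type control livers only through animals 403 and 405.

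Restriction raised Apoa4 by 1.66 ± 0.22 (SE) on the log2 scale in wild type mice, 3.16-fold, with a 95% interval of 1.20 to 2.12 (limma adjusted p = 1.58e-05). On the control diet Apoa4 was 0.89 ± 0.22 higher in progeroid than in wild type livers, 1.85-fold, with an interval of 0.43 to 1.35 (limma adjusted p = 0.0107). Both of these comparisons use the same 5 wild type control livers, which had the lowest mean, 10.97 ± 0.59 (SD), and the widest spread. In progeroid mice the diets differed by 0.63 ± 0.22, with an interval of 0.17 to 1.09, which did not pass (limma adjusted p = 0.0692, unadjusted 0.00958). It passed without progeroid restricted animal 366, at 0.74 with a limma adjusted p of 0.0470.

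The diet effect on Apoa4 was 1.03 ± 0.31 smaller in progeroid than in wild type mice, with an interval for the difference of -1.68 to -0.39. This did not pass after adjustment (limma adjusted p = 0.109, unadjusted 0.00332). It passed only without wild type control animal 403, at -1.21 with a limma adjusted p of 0.0471. On the restricted diet the genotypes were at 12.64 ± 0.29 and 12.49 ± 0.33 (SD), wild type first, and differed by -0.14 ± 0.22 (SE), with an interval of -0.60 to 0.31. The group means thus ran from wild type control through progeroid control to both restricted groups. Of the neighbours in that order, the first pair passed the test, the next pair missed it although its values did not overlap, and the restricted groups did not differ beyond their spread.

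Apoa4 and Apob are also made by enterocytes. Of 5 enterocyte markers 3 were measured; Vil1, of the brush border, ranged from 3.50 to 4.15 and Alpi, intestinal alkaline phosphatase, from 3.11 to 3.55 over the 20 livers, at the low end of the scale. Fabp2, a fatty acid binding protein, was at 10.19 to 12.17. With restriction in wild type mice 0 of these 3 markers rose and 1 fell, and between genotypes on the control diet none was called (0 of 3).

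Apoa4 lies among Apoa1, Apoc3 and Apoa5 on chromosome 9, and its measured level moved without theirs. Apoa1 and Apoc3 lay near the array maxima, where differences can be compressed. In RefSeq order the measured genes there are Sidt2, Sik3, Apoa1, Apoc3, Apoa4, Apoa5, Zpr1 and Bud13. With restriction in wild type mice Apoa4 rose by 1.66, while the differences of Apoa1, Apoc3 and Apoa5 were -0.03, 0.07 and 0.05, none of which passed. Beyond the cluster, Zpr1, a zinc finger protein gene, rose with restriction by 0.46 ± 0.16 in wild type (limma adjusted p = 0.0448) and by 0.55 ± 0.16 in progeroid mice (0.0303). Sik3, a kinase gene next to Apoa1, was lower in progeroid livers on the restricted diet, at -0.43 ± 0.14 (limma adjusted p = 0.0344). Sidt2 and Bud13 passed in no comparison. The flanking genes were chosen by position, after values of the members had been seen.

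**Figure D3:**
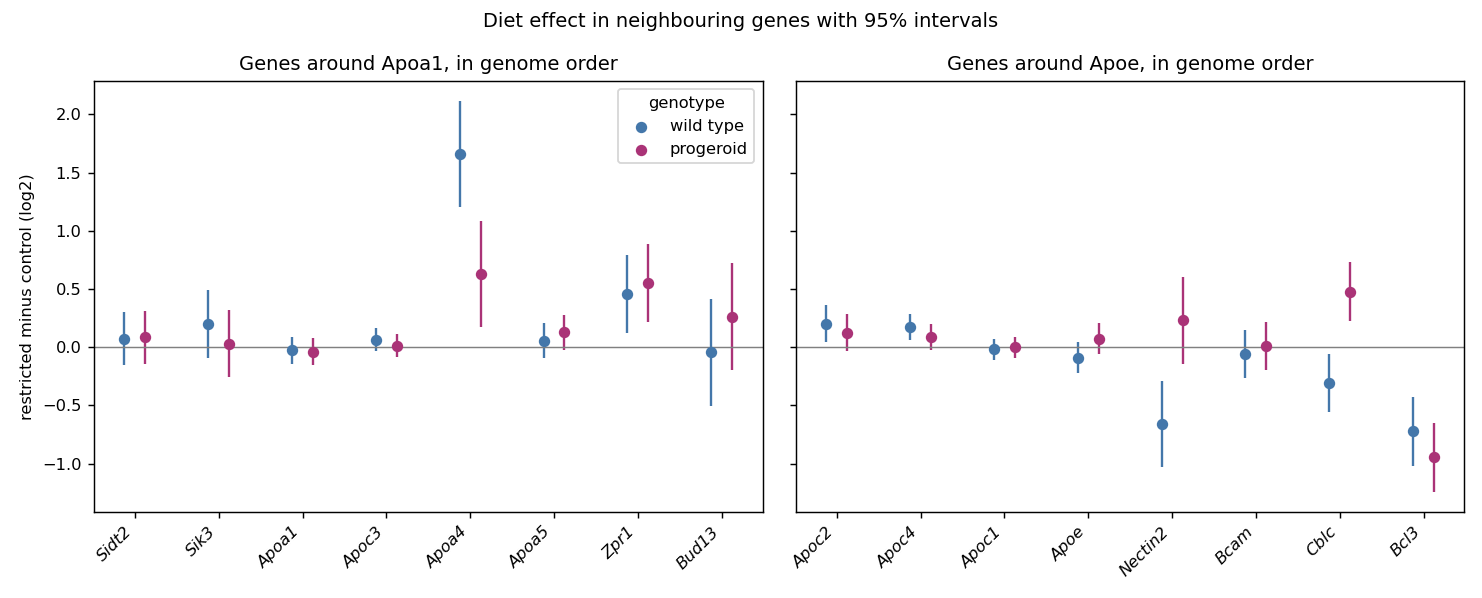
Log2 difference with restriction (restricted minus control, with 95% intervals) in wild type and progeroid mice for 8 genes around Apoa1 and 8 around Apoe, in RefSeq order. Apoa4 stands out at 1.66 in wild type and 0.63 in progeroid mice, while Apoa1, Apoc3 and Apoa5 lie between -0.04 and 0.13. The levels of Apoa1, Apoc3, Apoc1 and Apoe are near the array maxima, where differences can be compressed.

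The scaffold and lipolysis apolipoproteins were nearly flat. Apoa2, a structural protein of high density lipoprotein, lay between 14.02 and 14.16 in all 20 livers. Apoa1, the main protein of those particles, was at 13.89 ± 0.03 in wild type control, 13.87 ± 0.08 in wild type restricted, 13.91 ± 0.06 in progeroid control and 13.87 ± 0.08 in progeroid restricted livers (SD, n = 5). Its second probe set ranged from 13.68 to 13.85. Apoc3, an inhibitor of lipoprotein lipase, was at 13.93 ± 0.01, 14.00 ± 0.04, 13.93 ± 0.04 and 13.95 ± 0.07 in the same order. Over these 3 genes and the 4 comparisons of 2 groups, the differences ran from -0.05 to 0.07, and no 95% interval reached beyond 0.16 in either direction, a fold of 1.12 on this scale. The lowest limma adjusted p among them was 0.361. All 3 genes lay near the array maxima, where differences can be compressed. Apoa5, an activator of lipolysis, was at 12.83 ± 0.08, 12.89 ± 0.07, 12.86 ± 0.17 and 12.99 ± 0.07. Its largest difference was 0.13 with restriction in progeroid mice, with an interval of -0.02 to 0.28, and it passed in no comparison.

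Apob encodes the protein around which very low density lipoprotein is built. Its only probe set named for it alone had log2 levels of 8.64, 9.42, 8.91, 8.80 and 9.44 in wild type control livers and 9.23, 9.42, 9.72, 9.33 and 9.18 in wild type restricted livers. In progeroid livers the levels were 9.06, 9.58, 9.71, 9.60 and 9.39 on the control diet and 9.41, 9.24, 8.26, 9.41 and 9.33 on the restricted diet. All 4 groups overlapped, and animal 366 of the progeroid restricted group was far below the rest. On the control diet Apob was 0.43 ± 0.20 higher in progeroid livers, with an interval of 0.01 to 0.84, which did not pass (limma adjusted p = 0.192). The diet effects of the genotypes, -0.34 in progeroid and 0.34 in wild type mice, differed by -0.67 ± 0.28 (limma adjusted p = 0.272, unadjusted 0.0272). Without animal 366 the progeroid diet effect was only -0.12 and the difference of diet effects -0.46 (limma adjusted p = 0.716 and 0.405). On the restricted diet the genotypes differed by -0.25, and by -0.03 without that animal. Intervals reaching 0.84 leave this probe set imprecise. Those of Apoa1 and Apoa2 were narrower, but these genes lay near the array maxima, where differences can be compressed.

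Mttp encodes the transfer protein that loads lipid onto Apob. Its representing probe set was at 11.24, 11.37, 11.50, 11.17 and 11.52 in wild type control and 11.26, 10.99, 11.38, 11.42 and 11.24 in wild type restricted livers. It was at 11.43, 11.24, 11.14, 11.39 and 11.05 in progeroid control and 11.41, 10.84, 10.87, 11.02 and 10.90 in progeroid restricted livers. In the last group 4 of 5 livers were at 11.02 or below and animal 362 stood apart at 11.41. On the restricted diet the genotypes differed by -0.25 ± 0.11 and in progeroid mice the diets by -0.24 ± 0.11, neither of which passed (limma adjusted p = 0.128 and 0.172). Without animal 362 both passed, at -0.35 (limma adjusted p = 0.0155) and -0.34 (0.0322). The second probe set gave -0.35 ± 0.13 and -0.32 ± 0.13, with adjusted p of 0.0849 and 0.146 in a limma fit over all 45037 probe sets.

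Apom encodes a carrier of sphingosine-1-phosphate in high density lipoprotein. The 250 bases before its start, shown as those of the other member with a called difference, lie on the minus strand of chromosome 17 (RefSeq, GRCm38.p6, chr17:35131802-35132051). Capitals mark the same motifs.
Apom: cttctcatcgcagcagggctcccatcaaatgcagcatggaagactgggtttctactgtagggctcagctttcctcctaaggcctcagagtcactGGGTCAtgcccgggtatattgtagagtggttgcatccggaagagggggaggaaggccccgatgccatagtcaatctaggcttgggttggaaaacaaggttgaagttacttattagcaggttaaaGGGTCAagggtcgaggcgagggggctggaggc
GGGTCA occurred at -156 to -151 and at -32 to -27. Of the 9 members with a window 3 held it, and 11.6% of all windows did.

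On the restricted diet, Apom was at 12.73, 12.47, 12.85, 12.84 and 12.72 in wild type livers and at 12.22, 12.30, 12.36, 12.25 and 11.95 in progeroid livers. Every progeroid liver was below every wild type liver. On the control diet the wild type livers were at 12.61, 12.50, 12.47, 12.37 and 12.68 and the progeroid livers at 12.21, 12.48, 12.70, 12.53 and 12.32, with wide overlap. The genotype difference was -0.51 ± 0.10 on the restricted diet, 1.42-fold lower, with an interval of -0.71 to -0.31 (limma adjusted p = 0.000941). On the control diet it was -0.08 ± 0.10 (limma adjusted p = 0.664).

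The second Apom probe set was lower by a like amount on the restricted diet, at -0.58 ± 0.13 (adjusted p = 0.00553 in the limma fit over all probe sets), although there the values of the genotypes overlapped. Apom differed with restriction by -0.23 ± 0.10 in progeroid and 0.19 ± 0.10 in wild type mice, neither of which passed (limma adjusted p = 0.131 and 0.174). The diet effects differed by -0.43 ± 0.14, which did not pass either (limma adjusted p = 0.137, unadjusted 0.0055), so a genotype difference that depends on diet was not shown. Beside this, 10 of 12 macrophage markers were higher in progeroid than in wild type livers on the restricted diet. Their part in the level of Apom, which hepatocytes express, was not tested.

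Apoe encodes the ligand through which remnant particles bind their receptors, and macrophages make it as well as hepatocytes. On the restricted diet it was at 13.53, 13.37, 13.51, 13.48 and 13.43 in wild type and 13.51, 13.62, 13.73, 13.76 and 13.59 in progeroid livers. The groups overlapped through animal 362, at 13.51. The difference was 0.18 ± 0.06, with an interval of 0.04 to 0.31, and did not pass (limma adjusted p = 0.064). Without animal 362 it passed, at 0.21 (limma adjusted p = 0.0301). The centred mean of the 12 macrophage markers ran from -0.75 to -0.21 in wild type restricted and from 0.02 to 0.79 in progeroid restricted livers, and its part in the Apoe difference was not tested. On the control diet the genotypes differed in Apoe by 0.01. Lcat was at 11.50 ± 0.04 in wild type control, 11.50 ± 0.16 in wild type restricted, 11.47 ± 0.26 in progeroid control and 11.68 ± 0.12 in progeroid restricted livers (SD, n = 5). Its largest difference was 0.21 ± 0.10 with restriction in progeroid mice (limma adjusted p = 0.196).

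Around the members, 58 of 73 further lipoprotein genes in 5 lists were measured. On the control diet 5 were higher and 7 lower in progeroid livers, and on the restricted diet 11 and 11. With restriction 8 rose and 6 fell in progeroid mice, and 11 rose and 14 fell in wild type mice. For the difference of diet effects 2 were called in each direction, where 1.03% of all genes were higher and 0.374% lower. Of these calls, those of the assembly gene Surf4 and the regulator gene Foxa2 were lost in 17 and 13 of 20 fits without 1 animal. Among all genes, 6.70% were higher and 4.32% lower between genotypes on the control diet, 11.8% and 5.44% on the restricted diet, and with restriction 6.94% rose and 5.07% fell in progeroid and 9.92% rose and 12.6% fell in wild type mice.

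Of 13 other apolipoproteins and proteins carried on high density lipoprotein, 1 was higher in progeroid livers on the control diet and 3 on the restricted diet, and with restriction 3 fell in progeroid mice and 6 in wild type mice, where 1 rose. Their median differences lay between -0.12 and 0.04 over the comparisons of 2 groups, beside -0.03 to -0.00 for all genes. Apoc2, the cofactor of lipoprotein lipase, was higher in progeroid livers by 0.58 ± 0.08 on the control diet (limma adjusted p = 3.96e-05) and 0.50 ± 0.08 on the restricted diet (0.000125). In the same cluster on chromosome 7, Apoc1 and Apoe passed in no comparison. Both had group means between 13.46 and 13.68, near the array maxima, where differences can be compressed. Apoc4, also in this cluster, rose with restriction in wild type mice by 0.17 ± 0.05 (limma adjusted p = 0.0264). Saa1, an acute phase apolipoprotein, and Saa4 fell with restriction in wild type mice, by 2.46 ± 0.41 (limma adjusted p = 0.000199) and 1.75 ± 0.21 (5.09e-06) on the log2 scale. In progeroid mice they fell by 1.44 ± 0.41 (limma adjusted p = 0.0265) and 0.74 ± 0.21 (0.0263), calls that were lost without some of the animals. Saa1 was also 2.25 ± 0.41 higher in progeroid than in wild type livers on the restricted diet (limma adjusted p = 0.000642). On the control diet Saa1 was 1.23 ± 0.41 higher, which did not pass (limma adjusted p = 0.0592), nor did it in 14 of 18 alternatives. Saa4 did not pass between genotypes on either diet. Pon3, an esterase on high density lipoprotein, had diet effects that differed by -0.29 ± 0.14, which did not pass (limma adjusted p = 0.35). Macrophage markers moved in the wild type diet comparison, with 0 of 12 higher and 4 lower, and their part in the fall of Saa1 and Saa4 was not tested.

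Among 14 measured genes of apoB particle assembly and secretion, 2 were higher and 1 lower in progeroid livers on the control diet, and 4 and 3 on the restricted diet. With restriction 2 rose and 2 fell in progeroid mice and 3 rose and 4 fell in wild type mice. Tm6sf2, an endoplasmic reticulum protein needed to lipidate the particles, rose by 1.27 ± 0.14 in wild type (limma adjusted p = 2.19e-06) and 0.72 ± 0.14 in progeroid mice (0.00207). Sort1, a sorting receptor that binds Apob, fell by 1.51 ± 0.17 on the log2 scale with restriction in wild type mice (limma adjusted p = 2.06e-06), and its diet effect was 1.24 ± 0.24 higher in progeroid mice (0.0135). Apobec1, the enzyme that edits the Apob transcript, fell by 0.67 ± 0.13 on the log2 scale with restriction in progeroid mice (limma adjusted p = 0.00157) and by 0.61 ± 0.13 in wild type mice (0.00135). It was higher in progeroid livers on both diets, by 0.55 ± 0.13 (limma adjusted p = 0.00594) and 0.50 ± 0.13 (0.00837), control diet first. Ces1d, a triglyceride hydrolase, was lower in progeroid livers on the control diet, at -0.82 ± 0.13 (limma adjusted p = 0.000268), and Ces1g, of the same family, was higher at 0.68 ± 0.15 (0.00436). On the restricted diet they differed in the same directions, by -0.59 ± 0.13 (limma adjusted p = 0.00342) and 0.84 ± 0.15 (0.000477); family members are near copies, and probes may be shared. Pla2g12b, which takes part in triglyceride secretion, was 0.40 ± 0.08 higher in progeroid livers on the restricted diet (limma adjusted p = 0.00122). It fell with restriction by 0.56 ± 0.08 on the log2 scale in wild type (limma adjusted p = 3.08e-05) and 0.34 ± 0.08 in progeroid mice (0.00749).

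Of 11 measured genes of high density lipoprotein remodelling and of lipases, 2 were higher and 3 lower in progeroid livers on each diet. Lpl, the lipase that hydrolyses particle triglyceride and that adult hepatocytes express little, was 1.89 ± 0.18 higher on the control diet (limma adjusted p = 8.15e-07) and 2.26 ± 0.18 higher on the restricted diet (6.85e-08). Macrophages also express Lpl; 3 of 12 macrophage markers were higher in progeroid livers on the control diet and 10 of 12 on the restricted diet, and their part in this was not tested. Abcg1, which exports cholesterol to high density lipoprotein, was higher in progeroid livers by 0.89 ± 0.15 on the control diet (limma adjusted p = 0.000345) and 0.73 ± 0.15 on the restricted diet (0.00142). Pcsk6, a protease that cleaves lipases, was lower in progeroid livers on the control diet, at -0.77 ± 0.11 (limma adjusted p = 5.3e-05), and on the restricted diet, at -0.40 ± 0.11 (0.0111). With restriction 1 of the 11 rose and 0 fell in progeroid mice, and 2 rose and 2 fell in wild type mice. In wild type mice Furin, another such protease, rose by 0.36 ± 0.09 (limma adjusted p = 0.00662) and Lmf1, a chaperone of lipases, fell by 0.46 ± 0.12 on the log2 scale (0.0106); in progeroid mice Furin differed by 0.28 ± 0.09, which did not pass (0.053). Angptl4, an inhibitor of Lpl, had diet effects that differed between genotypes by 1.45 ± 0.57, which did not pass (limma adjusted p = 0.243), and by only -0.04 on a probe set without a suffix in its name.

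Of 5 measured lipoprotein receptor genes and their regulators, 1 was lower in progeroid livers on the control diet and 2 on the restricted diet, and with restriction 1 rose in progeroid and 2 in wild type mice. Vldlr, a receptor for triglyceride-rich particles, was lower in progeroid livers by -1.71 ± 0.26 on the control diet (limma adjusted p = 0.000134) and -2.26 ± 0.26 on the restricted diet (4.89e-06). It rose with restriction by 1.69 ± 0.26 in wild type mice (limma adjusted p = 7.3e-05) and by 1.14 ± 0.26 in progeroid mice (0.00618). The latter did not pass with the mean of all Vldlr probe sets, at 0.43 (0.193), or on those without a suffix, at 0.33 (0.377). The probe set was at only 3.55 ± 0.11 in progeroid control livers (SD, n = 5), the low end of the scale, where it was not shown to be above background, so the size of differences from that group is uncertain. Lsr, a receptor for remnants, was lower in progeroid livers on the restricted diet, at -0.69 ± 0.13 (limma adjusted p = 0.000718). Mylip, which marks such receptors for degradation, differed by 0.43 ± 0.17 with restriction in progeroid mice and by -0.35 ± 0.17 between genotypes on the control diet, neither of which passed (limma adjusted p = 0.107 and 0.216).

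Regulators of apolipoprotein transcription did not move with Apoa4 in 1 pattern. Of 15 measured, 2 were lower in progeroid livers on the control diet, 2 higher and 3 lower on the restricted diet, 4 rose and 1 fell with restriction in progeroid mice, and 3 rose and 2 fell in wild type mice. Creb3l3, a membrane-bound factor known to activate Apoa4, was at 10.65 ± 0.15 in wild type control and 9.54 ± 0.18 in wild type restricted livers (SD, n = 5), a difference of -1.11 ± 0.12 (SE; limma adjusted p = 9.36e-07). In wild type mice the restricted livers had less Creb3l3 and more Apoa4 transcript than the control livers. A part of Creb3l3 in the level of Apoa4 was not tested. In progeroid livers Creb3l3 was at 10.41 ± 0.26 and 10.38 ± 0.15 on the control and restricted diets, and its diet effect differed between genotypes by 1.09 ± 0.16 (limma adjusted p = 0.00335).

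Hnf4a, the nuclear receptor that drives many hepatocyte genes, was at 12.12 ± 0.16 in wild type and 11.75 ± 0.07 in progeroid livers on the control diet (SD, n = 5), a difference of -0.37 ± 0.07 (SE; limma adjusted p = 0.00226). Apoa4 was higher in those progeroid livers, and a part of Hnf4a in its level was not tested. Esrra, a regulator of oxidative metabolism, rose with restriction by 0.55 ± 0.08 in wild type (limma adjusted p = 4.96e-05) and 0.65 ± 0.08 in progeroid mice (3.06e-05). Mlxipl, a carbohydrate-responsive factor, fell by 0.70 ± 0.13 on the log2 scale with restriction in progeroid mice (limma adjusted p = 0.0015), and was lower in progeroid than in wild type restricted livers at -0.56 ± 0.13 (0.00526); in wild type mice it differed by -0.23 ± 0.13 with restriction, which did not pass (0.231). Foxa2, a forkhead factor of liver, had diet effects that differed between genotypes by -1.03 ± 0.25 (limma adjusted p = 0.0404), a call that was lost in 13 of 20 fits without 1 animal. These are transcript levels of the factors, not their activity.

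**Figure D4:**
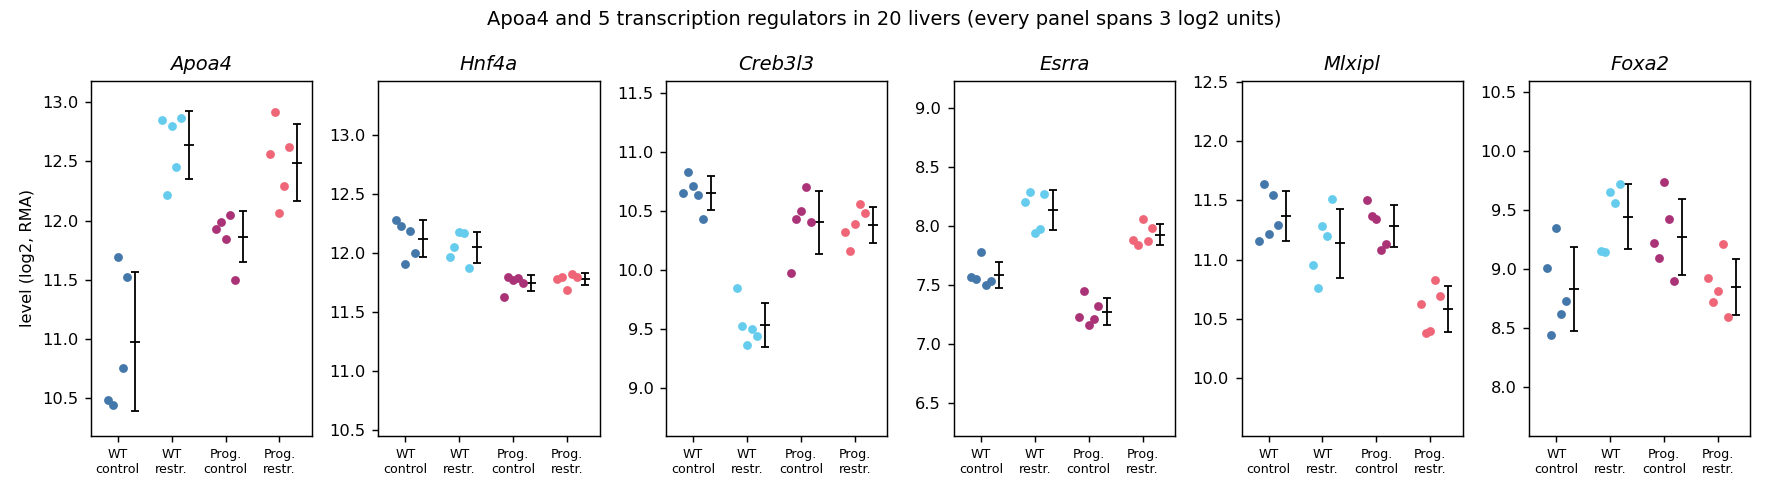
Log2 level of Apoa4 and of the 5 transcription regulators named here in every liver (points, 5 per group) with group mean and SD, in panels that each span 3 log2 units. Creb3l3 is lowest in wild type restricted livers (9.54 ± 0.18), and Hnf4a is lower in both progeroid groups (11.75 and 11.78) than in both wild type groups (12.12 and 12.05).

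Likeness to the members was measured as the root mean square difference of centred log2 levels over the 20 livers, as a description. Closest to Apoa4 were Cpm, a membrane carboxypeptidase gene, at 0.33, Brca2, of homologous recombination, at 0.38, and Fmo4, a flavin-containing monooxygenase gene, at 0.39. Brca2 had group means of 4.37 to 5.53 and Fmo4 of 4.53 to 6.48. Their lowest means, in wild type control livers, were near the array medians of 4.17 to 4.21, where neither was shown to be above background. Relative to its mean over all livers Apoa4 was at -1.02 in wild type control, 0.64 in wild type restricted, -0.13 in progeroid control and 0.50 in progeroid restricted livers. Cpm was at -0.94, 0.41, -0.08 and 0.61 in the same order. Closest to Apom were Rusf1 and Trh at 0.12 and Itih4, an acute phase plasma protein gene, at 0.13; Trh, with group means of 3.47 to 3.85, was at the low end of the scale. Closest to Apob were Gatad2b and Esrp2 at 0.25 and Pabpn1 at 0.26. The members' own spreads differed (SD 0.37 for Apob, 0.76 for Apoa4 and 0.24 for Apom). The measure is not scaled to them, so it does not rank closeness between members.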

How the data were processed

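Total RNA from 20 mouse livers was hybridised to Affymetrix arrays, 1 per animal, in 4 groups of 5 animals; groups were taken from the labels. The deposited values are log2 expression per probe set made by the authors with RMA, per the submitters' processing notes; the version used and the array definition were not stated there. RMA brings all arrays to 1 distribution (array medians 4.17 to 4.21), which would remove a shift of all genes, and has no zero point, so folds of low values are understated. The number of arrays limits the precision.

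Gene names of the 45141 probe sets came from the platform's annotation, with symbols checked by Entrez ID against RefSeq genes of GRCm38.p6 (28689 of 28898 probe sets with 1 symbol matched, 0 symbols changed). Probe sets with several symbols (551) or none (15588) and 104 control probe sets were not used for genes. Each of 17097 genes was represented by its probe set with the highest mean over 20 arrays. Limma 3.58.1 in R 4.3.3 (lmFit, eBayes) fitted 1 mean per group to all arrays, with 5 contrasts, two-sided tests and Benjamini-Hochberg adjustment within each contrast; a second fit covered all 45037 non-control probe sets. The fit was tested on simulated data. SE are moderated; SD are over 5 animals.

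The members, lists, tests and alternatives were chosen with earlier results of these data known. Named were all members, Ercc1, the 2 genes of each list with the lowest adjusted p in each contrast, and for the 3 members with the largest SD the 3 most alike genes. Alternatives left out each animal, changed the probe set rule, a filter on dim genes, centring, array weights, moderation and the groups fitted.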

Additional observations from a re-analysis of the deposited data

Results flagged for a closer look

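Among 52 sets of 5 animals (13 member probe sets in 4 groups), 2 held an animal whose gap to the nearest other animal was over 0.71 of the range of the set; chance gives about 1 set in 20. In the progeroid restricted group animal 366 had an Apob level of 8.26, while the other 4 animals lay between 9.24 and 9.41. In the wild type restricted group animal 424 had an Apoa1 level of 13.72 on the representing probe set, while the others lay between 13.89 and 13.91. On the second Apoa1 probe set this animal was the highest of its group, at 13.74 in a range of 13.70 to 13.74. The low value was thus not seen there. Apoa1 lay near the array maxima, where differences can be compressed. No member had a difference of diet effects that passed the test.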

How the results depend on the processing

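The 3 called differences of members passed under every alternative run: Apoa4 between genotypes on the control diet (0.75 to 1.07, limma adjusted p 0.0019 to 0.0371) and with restriction in wild type mice (1.53 to 1.84, 4.71e-06 to 0.000628), and Apom between genotypes on the restricted diet (-0.58 to -0.44, 0.000309 to 0.00553). Of 990 member values under alternatives, 10 passed where the reported one did not and 35, none of them called, changed sign. Beside those given with the results, Apoe on the restricted diet passed with genes under a mean of 5 left out (adjusted p = 0.047), with a trended robust prior (0.0313) and with array weights (0.034), Mttp there passed with array weights (0.037), and Apoa4 with restriction in progeroid mice passed when only those groups were fitted (0.0218). Members called on the restricted diet thus numbered 2, 2 and 3 with the filter, the prior and the weights, and in progeroid mice 1 with only those groups. Without 1 animal, members called ranged from 1 to 3 between genotypes on the restricted diet, from 0 to 1 with restriction in progeroid mice and from 0 to 1 for the difference of diet effects. Over all probe sets 3127 and 5174 were called between genotypes on the control and restricted diets, and 3715 and 8544 with restriction in progeroid and wild type mice. Genes called for the difference of diet effects numbered 363 with array weights and ranged from 103 (without wild type restricted animal 423) to 490 (without 421) against 240 reported, from 129 to 149 without 321, 366, 368, 369, 401, 403 or 424 and 386 without 362. Signs changed near 0 with median centring for Apoe between genotypes on the control diet (-0.00493), Lcat with restriction in wild type mice (-0.00275) and the Apoa1 difference of diet effects (0.00855); with array weights for Apoc3 (0.00268) and Lcat (0.00221) between genotypes on the control diet and Lcat with restriction in wild type mice (-0.00171); and for Apoa1 between genotypes on the restricted diet on its second probe set (-0.00221). Without 1 animal, values between genotypes on the control diet ranged from -0.113 to 0.0428 for Lcat, -0.0119 to 0.0127 for Apoc3, -0.0105 to 0.054 for Apoe and -0.0126 to 0.0964 for Apoa5, and from -0.0281 to 0.0305 for Apoa1 on the restricted diet. With restriction they ranged from -0.00321 to 0.0381 for Apoc3 in progeroid mice, and in wild type mice from -0.0371 to 0.0587 for Lcat and -0.0374 to 0.0101 for Apoa1, whose difference of diet effects ranged from -0.0497 to 0.00901. Without suffixed probe sets Ercc1 differed between genotypes by 0.0203 on the control diet and 0.0155 on the restricted diet, and the difference of diet effects of Angptl4, reported at 1.45, was -0.0394; with the mean of probe sets that of Ercc1 was 0.00792. Among other named genes, 39 of 55 results stayed on their side of the threshold throughout. Those lost without 1 animal were Saa1, Saa4 and Lipg (reported at 1.05, adjusted p = 0.0283) with restriction in progeroid mice (adjusted p up to 0.0776, 0.0722 and 0.0873), Lsr (0.42, 0.0215) in wild type mice (up to 0.0687) and Surf4 (-0.49, 0.0497) and Foxa2 for the difference of diet effects (up to 0.103 and 0.0815); the cause was not tested. Vldlr with restriction in progeroid mice was lost with other probe set rules, while Furin and Mylip there passed without 1 animal (progeroid control 325, 0.0401, and 326, 0.0342). No paired analysis was possible because the groups share no animal numbers.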

Other observations

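The genes that flank Apoe on chromosome 7 were looked at after the members' values had been seen, as values with no explanation. Apoc4 rose with restriction in wild type mice by 0.17 ± 0.05 (limma adjusted p = 0.0264), and Apoc1 showed no difference larger than 0.035 in any comparison. The level of Apoc1 was near the array maxima, where differences can be compressed. Nectin2, a cell adhesion molecule, was 1.11 ± 0.18 higher in progeroid than in wild type livers on the restricted diet (limma adjusted p = 0.000185), and Cblc, a ubiquitin ligase gene, had diet effects that differed between genotypes by 0.79 ± 0.17 (0.0253). Bcl3, a partner of NF-kappa-B, differed with restriction by -0.95 ± 0.14 in progeroid (limma adjusted p = 0.000215) and -0.72 ± 0.14 in wild type mice (0.000914). These differences of Nectin2, Cblc and Bcl3 were larger than any of Apoe. Apoe, with group means of 13.46 to 13.64, lay near the array maxima, where differences can be compressed. Nectin2, Cblc and Bcl3 had group means of 6.43 to 7.73, so the sizes cannot be compared directly.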
